A study of Mus musculus with 514 samples.

Results

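Single mouse embryos at the 8-cell stage (8C) were compared with single embryos at the 4-cell stage (4C), all of the control genotype of a study of the nuclear receptors Nr5a2 and Esrrb. The comparison holds 27 of the 514 samples of the series: every full-length library labelled 8C_mz_DHet, 21 embryos, and every one labelled 4C_mz_DHet, 6 embryos. DHet denotes heterozygosity for a deletion of Nr5a2 and for a deletion of Esrrb, per the header of the deposited table, which spells out mz as maternal and zygotic. Both stages therefore carry the heterozygous deletions, and neither is wild type. The 8C embryos are dated 23 February 2022 (2 embryos), 8 March 2022 (15) and 15 July 2022 (4) in the labels, and the 4C embryos 22 May 2022 (1) and 17 June 2022 (5). No date holds both stages, so stage and date cannot be told apart. The labels name no strain, mother or litter, describe growth as ex vivo, and do not say what drove the deletions, and p-values therefore describe the variation among single embryos. Where other groups serve as a measure, they are late 2-cell embryos of the same genotype (L2C, 7 embryos) and embryos with maternal and zygotic loss of Nr5a2 and Esrrb (mz_DKO, 10 at 8C and 10 at 4C). Fits over more groups also hold 4C and 8C embryos that lost Esrrb alone (mz_EKO) or Nr5a2 alone (mz_NrKO), maternally and zygotically. The date-term fit described below adds late 2-cell embryos of both and of mz_DKO.

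At these stages the mouse embryo depends on RNA from its own genome, while transcripts stored by the oocyte and those of the burst at genome activation are cleared. During the 8-cell stage the blastomeres flatten against each other through E-cadherin, which is called compaction, and set up an apical and a basal side. Outer cells go on to form the trophectoderm, a sealed epithelium that pumps fluid into the blastocyst, and inner cells form the inner cell mass, from which epiblast and primitive endoderm arise.

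Expression was read as TPM, in which transcript abundances, per length, are scaled to a fixed sum in each library. It shows the share of a transcript in a library and not its amount per embryo, so fewer transcripts and a smaller share cannot be told apart. Sequencing depth per library is unknown from these values. Genes were tested with limma on log2(TPM + 1), and fold changes are given on that scale as 8C minus 4C, which understates the change of low genes. A gene is said to rise or fall where the adjusted p was under 0.05 and the difference at least 2-fold. Of 11069 genes tested, 2064 were higher at 8C (18.6%) and 3474 lower (31.4%). Each count of a gene list in this comparison is to be read against these shares, and a count from another fit against the counts over all genes in that fit. At least 4-fold differences numbered 839 higher (7.58%) and 1622 lower (14.7%). The median log2 fold change over all tested genes was -0.31, and scaling by the median ratio moved it to 0.03 with 2688 genes higher and 2698 lower. Late 2-cell embryos of mz_DHet or of a mutant genotype share a date with some embryos of each stage. A further fit, called the date-term fit here, therefore took date as a term over mz_DHet, mz_EKO, mz_NrKO and mz_DKO embryos from late 2-cell to 8C. The only late 2-cell embryos of the date of most 4C controls are mz_EKO. The fit takes a date to act alike at every stage and in every genotype, which was not tested. Without overlap between the groups, 522 genes lay higher in every 8C embryo than in every 4C embryo (4.72%), and 1501 lay lower (13.6%).

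The stage labels were checked against markers. Cdx2, Krt8, Krt18 and Cdh1 were above every 4C embryo in all 21 8C embryos. Nanog, at a median of 9.84 TPM at 8C and 3.84 TPM at 4C, rose with overlap, a call lost without 4C replicate 2, 3, 5 or 6 (log2 fold changes 0.79 to 1.27). The earlier markers Zfp352 and Gdf9 were below every 4C embryo in all 21 8C embryos, and Zp3 in 19 of 21. Zscan4d, too low at these stages to be tested, was at 0 in every 8C embryo and between 0.562 and 13.2 TPM (median 5.05) at 4C. The 4 embryos of 15 July stood apart from the other 8C embryos: cytosolic ribosomal protein genes summed to between 151871 and 160305 TPM in them, to between 68180 and 100206 TPM in the 15 of 8 March and to between 24021 and 35922 TPM at 4C. The first principal component (39.7% of the variance) placed the 8C embryos between 14.2 and 77.2 and the 4C embryos between -146.8 and -137.8, and the second (15.1%) placed those of 8 March between -45.5 and -29.8, apart from those of 23 February (40.8 to 75.2) and 15 July (66.1 to 99.9), which overlap. Cumulus and sperm markers were near 0, and some oviduct and blood markers were not. All 12 cumulus markers summed to at most 3.67 TPM, all 6 sperm markers to at most 3.23 TPM and the 7 oviduct markers to at most 34.3 TPM, while the 8 blood markers summed to between 0 and 30.8 TPM at 8C and between 0.888 and 3554.5 TPM at 4C. Of the oviduct markers only Wfdc2 reached the filter, at 0 in every 4C embryo and between 0 and 26.4 TPM (median 4.41) at 8C, and it rose (adjusted p = 0.00699). Hbb-bs and Hbb-bt were at 0 throughout, as were the cumulus genes Fshr, Inha and Cyp19a1 and the sperm genes Tnp1, Odf1 and Smcp. The blood markers Hba-a2, Ptprc, Cd52 and Lyz2 each reached 5 TPM in at least 1 embryo. Nearly all of the highest blood marker sum at 4C is Lyz2, at 3534 and 1328 TPM in replicates 1 and 2. Cd52 was at most 6.72 TPM in the other 4C embryos and at 7.81 and 15.2 TPM in replicates 1 and 2. The lysosome genes are also given without these 2 libraries, and the part of other cells in the remaining results was not tested.

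Genes among those that rose most encode proteins of an epithelium: a water and glycerol channel, a tight junction claudin and a keratin pair. Aqp3 (chr4:41092722-41098183), a channel for water and glycerol, was between 24.3 and 947 TPM (median 475) at 8C and between 0 and 0.584 TPM (median 0.286) at 4C, a log2 fold change of 8.36 ± 0.42 (adjusted p = 1.56e-16). Cldn4 (chr5:134945119-134946934), a claudin of tight junctions, was between 253 and 936 TPM (median 616) at 8C and between 0 and 6.31 TPM (median 0.691) at 4C, a log2 fold change of 8.07 ± 0.30 (adjusted p = 3.26e-19). Krt18 (chr15:102028180-102032027) and Krt8 (chr15:101996698-102004482), partners in the keratin filaments of simple epithelia, were both near 0 at 4C. Krt18 was between 32.8 and 727 TPM (median 467) at 8C and between 0 and 5.82 TPM (median 0.360) at 4C (log2 fold change 7.54 ± 0.51, adjusted p = 1.35e-13). Krt8 was between 14.6 and 280.0 TPM (median 128) at 8C and between 0 and 3.16 TPM (median 0) at 4C (log2 fold change 6.29 ± 0.46, adjusted p = 9.86e-13). For these 4 genes the lowest 8C embryo lay above the highest 4C embryo.

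Of the 12 largest rises 9 have a start region in the RefSeq table. Those of the 4 genes above are shown because the account opens with them, and that of Khdc3 because it alone of the 9 holds a form of the Nr5a2 half-site. Each is 300 bases of the mouse genome (GRCm38.p6, RefSeq), from 250 bases before the annotated start to 50 bases from it, written 5′ to 3′ on the gene's own strand. Capitals mark the motifs found among the 9 searched on both strands. Aqp3 lies at chr4:41098134-41098433, Cldn4 at chr5:134946885-134947184, Krt8 at chr15:102004293-102004592 (all minus strand), and Krt18 at chr15:102027966-102028265 and Khdc3 at chr9:73102148-73102447 (plus strand).
Aqp3: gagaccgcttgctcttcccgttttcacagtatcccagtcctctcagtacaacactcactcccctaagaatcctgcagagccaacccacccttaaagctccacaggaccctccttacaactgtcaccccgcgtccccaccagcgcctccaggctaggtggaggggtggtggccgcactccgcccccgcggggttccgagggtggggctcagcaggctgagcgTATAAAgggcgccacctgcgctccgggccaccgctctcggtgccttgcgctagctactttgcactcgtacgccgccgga
Cldn4: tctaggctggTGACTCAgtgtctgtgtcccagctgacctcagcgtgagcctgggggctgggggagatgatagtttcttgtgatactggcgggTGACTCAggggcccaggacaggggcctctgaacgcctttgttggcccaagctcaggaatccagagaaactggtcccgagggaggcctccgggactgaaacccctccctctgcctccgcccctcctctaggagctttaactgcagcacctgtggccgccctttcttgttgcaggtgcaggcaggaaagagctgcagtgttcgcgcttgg
Krt18: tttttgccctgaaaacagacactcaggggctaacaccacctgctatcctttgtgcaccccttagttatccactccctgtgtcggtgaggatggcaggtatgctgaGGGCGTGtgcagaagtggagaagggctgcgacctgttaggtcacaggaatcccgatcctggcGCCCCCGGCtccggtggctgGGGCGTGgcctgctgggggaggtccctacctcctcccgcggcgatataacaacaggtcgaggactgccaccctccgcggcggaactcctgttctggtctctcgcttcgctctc
Krt8: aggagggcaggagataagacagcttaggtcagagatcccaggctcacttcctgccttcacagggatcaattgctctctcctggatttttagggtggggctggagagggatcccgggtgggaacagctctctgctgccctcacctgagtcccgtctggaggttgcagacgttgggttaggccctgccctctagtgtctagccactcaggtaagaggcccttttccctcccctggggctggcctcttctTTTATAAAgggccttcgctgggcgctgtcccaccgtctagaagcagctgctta
Khdc3: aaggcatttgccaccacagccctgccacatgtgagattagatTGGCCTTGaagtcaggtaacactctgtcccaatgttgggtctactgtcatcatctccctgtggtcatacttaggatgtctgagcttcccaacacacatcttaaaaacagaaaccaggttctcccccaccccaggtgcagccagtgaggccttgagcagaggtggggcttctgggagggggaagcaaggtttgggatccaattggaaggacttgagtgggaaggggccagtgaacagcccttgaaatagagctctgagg
Positions are those of the leftmost base of a motif, counted from the start with -1 just before it. The capitals are a TATA box (TATAAA) at -29 in Aqp3. In Krt8 they are 2 matches to the same letters that overlap, on opposite strands, at -3 and -1. That stretch runs across the annotated start, so it is given as a match of letters only. Cldn4 holds 2 AP-1 motifs (TGANTCA) at -240 and -158. Krt18 holds KLF motifs (GGGCGTG) at -145 and -63 and a Tfap2 motif (GCCNNNGGC) at -83. Khdc3 holds, on the minus strand at -208, the Nr5a2 variant half-site (CAAGGCCA). Of the regions not shown, that of Crip2 holds SP motifs at -237 and -35, that of Ass1 KLF motifs at -197 and -122 and an E-box at -36, that of Elf3 a TEAD motif at -235, and that of Apoa1 none of the 9. The other motifs searched were the half-site of Nr5a2 and Esrrb (CAAGGTCA), a TEAD motif (GGAATG), an SP motif (GGGGCGGGG) and an E-box of SREBP and MYC (CACGTG). Among 7697 tested coding genes with such a window, 6.25% held the TATA box, 4.18% AP-1, 16.8% KLF, 25.1% Tfap2, 1.62% the variant half-site, 1.04% the half-site, 11.4% TEAD, 22.6% SP and 10.8% the E-box. A comparison of motif shares between genes that rose and genes that fell is void, since only 77.9% of the coding genes that rose had a window in the table.

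The other largest rises ran from enzymes to surface proteins. Crip2, a LIM-domain protein, was between 131 and 909 TPM (median 534) at 8C and between 0 and 6.65 TPM (median 0.699) at 4C (log2 fold change 8.09 ± 0.33, adjusted p = 1.70e-18). Khdc3, a gene of the subcortical maternal complex that is best known from the oocyte, was between 189 and 1378 TPM (median 915) at 8C and between 2.63 and 24.4 TPM (median 8.81) at 4C (log2 fold change 6.46 ± 0.32, adjusted p = 1.02e-16). Ly6a, the surface protein Sca-1, was between 49.3 and 811 TPM (median 287) at 8C and at most 6.43 TPM at 4C (adjusted p = 5.44e-15). Perp, a desmosome protein and p53 target, was between 49.1 and 299.7 TPM (median 143) at 8C and at most 2.63 TPM at 4C (log2 fold change 6.61 ± 0.32, adjusted p = 4.61e-17). In these 4 genes the lowest 8C embryo lay above the highest 4C embryo. Ass1, argininosuccinate synthase, and Apoa1, the main apolipoprotein of high-density lipoprotein, were listed at 0 in every 4C embryo. At 8C Ass1 was between 18.6 and 361 TPM (median 129.5) (adjusted p = 7.52e-15), and Apoa1 between 5.63 and 742 TPM (median 130.0) (adjusted p = 5.05e-11). Elf3, an ETS factor of epithelia, was between 20.8 and 549 TPM (median 209) at 8C and between 0 and 6.35 TPM (median 0.665) at 4C (log2 fold change 6.30 ± 0.50, adjusted p = 5.10e-12).

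**Figure D1:**
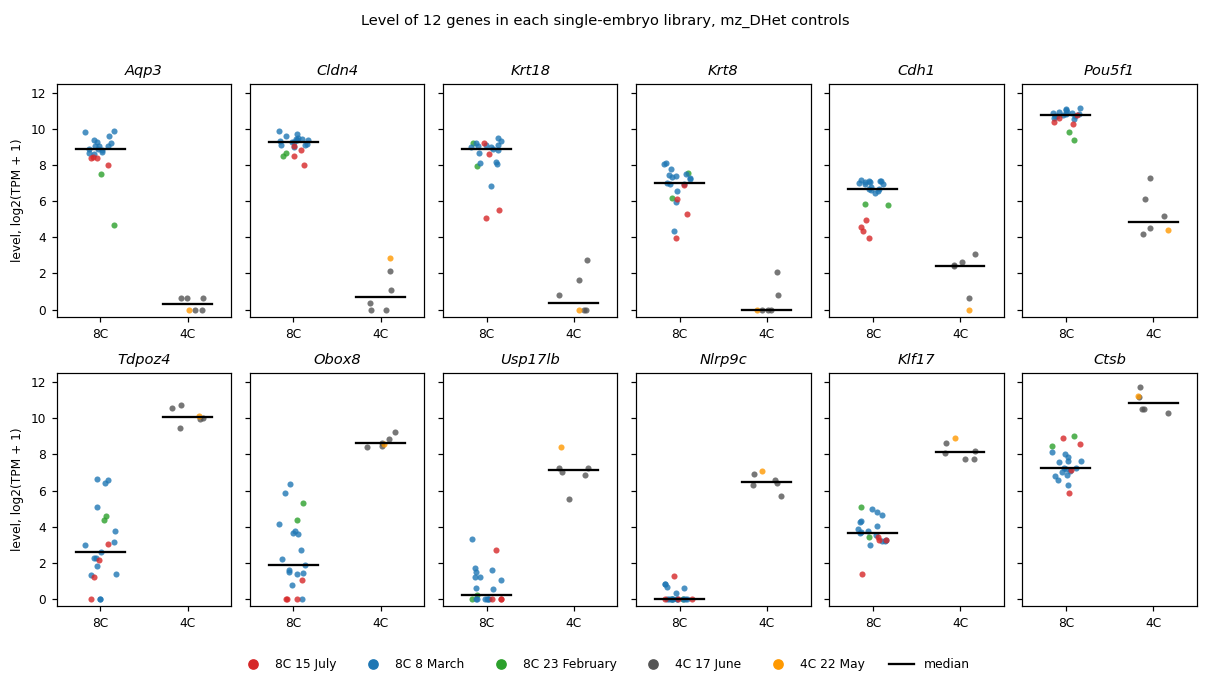
Each point is the log2(TPM + 1) of 1 embryo, 8C left of 4C, for 6 genes that rose (upper row) and 6 that fell (lower row), coloured by the date in the labels, with a line at the group median. In Aqp3 the 21 8C embryos lie between 24.3 and 947 TPM and the 6 4C embryos between 0 and 0.584 TPM, and in Nlrp9c the order is turned round, with 0 to 1.44 TPM at 8C and 50.5 to 135 TPM at 4C.

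Genes whose lowest 8C embryo reached 5 TPM and whose highest 4C embryo stayed under 1 TPM numbered 11 (0.0994% of those tested), and the reverse pattern held for 46 (0.416%). The 11 include Aqp3, Apoa1, Ass1, Clic3, Pdzd3, Eprn, Smim1, Mpzl2, BC048679 and 1500009L16Rik. Clic3, an intracellular chloride channel protein, had a median of 66.9 TPM at 8C and 0 at 4C, and Mpzl2, an adhesion protein of epithelia, 19.9 TPM at 8C and 0 at 4C. Of the 46, 21 have gene names other than predicted or clone names. Among them Gng4, a G protein subunit, had medians of 0 TPM at 8C and 35.0 TPM at 4C, and Il7, a cytokine of lymphocytes, 0 TPM at 8C and 27.1 TPM at 4C. Rspo2, a secreted enhancer of Wnt signalling, had 0 TPM at 8C and 25.9 TPM at 4C, and the homeobox genes Obox1 and Obox3 are also in this set. Apart from Aqp3, Apoa1, Ass1 and the Obox genes, these names were chosen after their values were seen.

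Junctions and the trophectoderm programme moved upward. Of 18 tested genes of tight junctions, desmosomes and gap junctions, 9 rose and none fell, against 18.6% and 31.4% of all tested genes. Among the 9 were Cldn4, Pkp2, Cldn7, Gjb5, Jup, Cldn6, Gja1 and Ocln. The median log2 fold change of the list was 1.01, against -0.31 over all tested genes. Without the embryos of 15 July 12 rose, and after median-ratio scaling 14. Ocln was not called without 4C replicate 2 or 4 (log2 fold changes 0.80 and 0.92). The rise of Cldn6, a claudin of the early embryo, was lost in the date-term fit, at a log2 fold change of -0.10. Cldn7, a second claudin, was between 357 and 1387 TPM (median 763) at 8C and between 42.7 and 167 TPM (median 58.3) at 4C (log2 fold change 3.46 ± 0.25, adjusted p = 7.77e-13). Pkp2, a plakophilin of desmosomes, was between 4.44 and 39.8 TPM (median 22.8) at 8C and listed at 0 in every 4C embryo (adjusted p = 3.17e-11). Gja1, the connexin Cx43, was already abundant, at a median of 797 TPM at 8C and 313 TPM at 4C (log2 fold change 1.58, adjusted p = 1.57e-05).

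Of 17 tested trophectoderm factors and keratins, 10 rose and 2 fell (Tead4 and Sp6), against 18.6% and 31.4% of all tested genes, with a median of 2.58. Cdx2, the homeobox factor that specifies trophectoderm, was between 0.620 and 294 TPM (median 87.3) at 8C and listed at 0 in all 6 4C embryos (adjusted p = 2.39e-08). Gata3, a second factor of that lineage, was between 18.7 and 588 TPM (median 188) at 8C and between 0 and 6.70 TPM (median 1.45) at 4C (log2 fold change 5.88 ± 0.57, adjusted p = 4.83e-10). Both groups of embryos were apart in these 2 genes, although single 8C embryos stayed low. Eomes, also of trophectoderm, had a median of 8.26 TPM at 8C and 0 TPM at 4C (log2 fold change 2.58, adjusted p = 6.79e-04). Tead4, the DNA-binding partner of Yap1 upstream of Cdx2, fell, with medians of 124 TPM at 8C and 231 TPM at 4C (log2 fold change -1.42 ± 0.38, adjusted p = 0.00182). Tead4 was not called and had the other sign both in the date-term fit (0.37) and in reads with a 5′ molecular identifier (0.37). Tfap2c, a further factor of the lineage, had medians of 107 TPM at 8C and 92.7 TPM at 4C and did not pass the test (log2 fold change 0.24, adjusted p = 0.439, and -0.12 with the 8C embryos of 15 July alone).

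Adhesion and polarity genes went both ways, with 8 of 33 tested members higher, 8 lower and a median of 0.14. Cdh1, E-cadherin, was between 14.8 and 141 TPM (median 100.1) at 8C and between 0 and 7.55 TPM (median 4.40) at 4C (log2 fold change 4.45 ± 0.46, adjusted p = 1.79e-09). Ctnna1, the alpha-catenin that ties cadherins to actin, was between 74.1 and 185 TPM (median 124) at 8C and between 25.4 and 71.5 TPM (median 39.3) at 4C (log2 fold change 1.57 ± 0.19, adjusted p = 2.56e-08), without overlap. Cfl1, the actin-severing cofilin, rose with overlap, at medians of 1567 TPM at 8C and 618 TPM at 4C (log2 fold change 1.19 ± 0.17, adjusted p = 8.57e-07). Among polarity genes, Pard6b had medians of 31.3 TPM at 8C and 11.0 TPM at 4C and rose (log2 fold change 1.27, adjusted p = 0.00647). For Pard6b the date-term fit gave -0.45, and the 8C embryos of 15 July alone -0.27. Its partner Pard3 had 19.5 TPM at 8C and 47.5 TPM at 4C and fell (log2 fold change -1.37, adjusted p = 0.00466). Rock1, a kinase of the contractile actomyosin cortex, fell without overlap and was between 1.90 and 28.0 TPM (median 13.0) at 8C and between 48.7 and 73.1 TPM (median 64.1) at 4C (log2 fold change -2.26 ± 0.34, adjusted p = 1.68e-06).

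Among 9 tested water channels, sodium pump subunits and exchangers, 2 rose (Aqp3 among them) and 4 fell, with a median of -0.48. Atp1b3, a beta subunit of the pump, was between 18.1 and 135 TPM (median 74.0) at 8C and between 165 and 479.7 TPM (median 337) at 4C and fell (log2 fold change -2.08 ± 0.31, adjusted p = 1.22e-06). Aqp11, an aquaporin of intracellular membranes, was between 0.989 and 73.2 TPM (median 12.0) at 8C and between 105 and 239 TPM (median 198) at 4C (log2 fold change -3.84 ± 0.54, adjusted p = 4.12e-07). At 8C the Aqp3 median lay above those of Aqp9 (75.5 TPM) and Aqp11 (12.0 TPM), and at 4C it lay below both (147 and 198 TPM). Aqp9, a channel for water and small solutes, fell with a log2 fold change of -1.07 ± 0.22 (adjusted p = 1.60e-04), close to the 2-fold limit, and was under that limit without 4C replicate 1 or 5 (-0.95 and -0.99).

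In the Hippo pathway, which keeps Yap1 out of the nuclei of inner cells, 5 of 20 tested genes rose (25.0%) and 7 fell (35.0%), near the 18.6% and 31.4% over all tested genes, with a median of -0.44. Those that rose were Amot, Amotl2, Lats2, Tead2 and Vgll4. Vgll4, a cofactor that competes with Yap1 for TEAD proteins, was between 15.7 and 84.9 TPM (median 46.0) at 8C and between 0 and 7.71 TPM (median 0) at 4C (log2 fold change 4.54 ± 0.40, adjusted p = 5.82e-11). The angiomotin Amotl2 was listed at 0 at 4C and was between 0.150 and 68.5 TPM (median 44.0) at 8C (adjusted p = 1.34e-06). The kinase Lats2 rose, at medians of 12.2 TPM at 8C and 1.10 TPM at 4C (log2 fold change 2.46 ± 0.39, adjusted p = 2.86e-06). Nf2, the scaffold merlin, fell and was between 11.9 and 70.9 TPM (median 36.3) at 8C and between 150.4 and 261 TPM (median 240.3) at 4C (log2 fold change -2.65 ± 0.27, adjusted p = 1.46e-09). Yap1 fell with overlap, at medians of 98.9 TPM at 8C and 196 TPM at 4C (log2 fold change -1.52 ± 0.57, adjusted p = 0.0219), and did not pass the test without 4C replicate 2 or 5 (-1.35 and -1.40). Its median was 10.3 TPM in the 8C embryos of 15 July and 118 TPM in those of 8 March.

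In 7 lists the shares called were both within 10 percentage points of those over all tested genes, so their counts are no result about the list: adhesion and polarity, Hippo signalling, FGF and ERK signalling, the Nodal and BMP ligands and receptors, DNA methylation, imprinted genes, and histone variants.

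**Figure D2:**
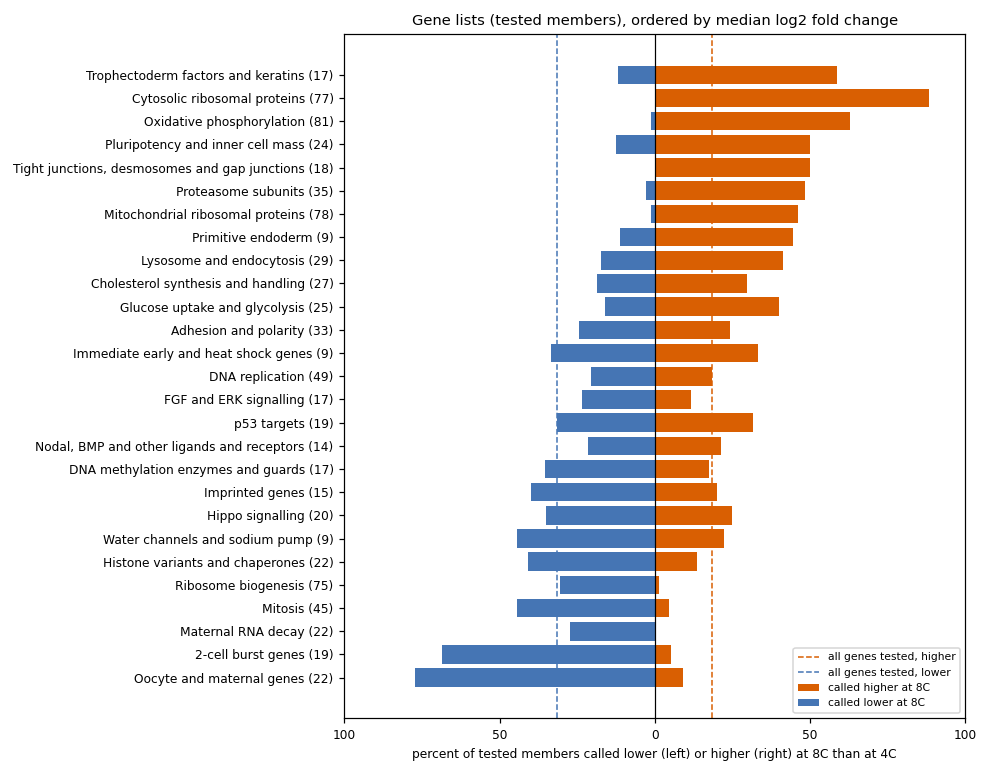
Percent of the tested members of each of 27 gene lists called higher (to the right) and lower (to the left) at 8C than at 4C, ordered by the median log2 fold change of the list, with dashed lines at the shares among all tested genes (18.6% higher and 31.4% lower). Cytosolic ribosomal proteins, with 68 of 77 members higher, and oocyte and maternal genes, with 17 of 22 lower, lie near the opposite ends.

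Of 24 tested pluripotency and inner cell mass genes, 12 rose and 3 fell, against 18.6% and 31.4% of all tested genes, with a median of 1.25. Pou5f1, the factor Oct4, was between 664 and 2261 TPM (median 1729.6) at 8C and between 17.1 and 154 TPM (median 28.9) at 4C (log2 fold change 5.38 ± 0.29, adjusted p = 4.44e-16). Tfcp2l1, a factor of naive pluripotency, was between 45.7 and 151 TPM (median 84.3) at 8C and between 0 and 1.67 TPM (median 0.150) at 4C (log2 fold change 6.03 ± 0.25, adjusted p = 1.44e-18). Zfp42, known as Rex1, was between 47.5 and 149.9 TPM (median 94.7) at 8C and between 5.23 and 29.1 TPM (median 16.3) at 4C (log2 fold change 2.67 ± 0.24, adjusted p = 1.29e-10). In all 3 genes every 8C embryo lay above every 4C embryo. Dppa5a, an RNA-binding protein of pluripotent cells, was among the most abundant, at medians of 1329.5 TPM at 8C and 304 TPM at 4C (log2 fold change 2.40 ± 0.33, adjusted p = 3.08e-07), with 5170.3 TPM on 15 July and 1210.0 TPM on 8 March. Among Krüppel-like factors, Klf5 rose, at medians of 455 TPM at 8C and 125 TPM at 4C (log2 fold change 1.94, adjusted p = 2.04e-06). Klf17 fell and was between 1.61 and 33.3 TPM (median 11.6) at 8C and between 214 and 484 TPM (median 284) at 4C (log2 fold change -4.51 ± 0.35, adjusted p = 3.63e-12).

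The deleted receptors themselves were read at gene level, which includes transcripts of a deleted allele. Nr5a2 was between 184 and 695 TPM (median 485) at 8C and between 487 and 883 TPM (median 594) at 4C, a log2 fold change of -0.46 ± 0.22 that did not pass the test (adjusted p = 0.0768). In the date-term fit the sign was the other way, at 0.81. Esrrb rose and was between 13.4 and 76.5 TPM (median 48.7) at 8C and between 8.17 and 27.2 TPM (median 19.8) at 4C (log2 fold change 1.27 ± 0.27, adjusted p = 1.70e-04), with 19 of 21 8C embryos above every 4C embryo. The median of Nr5a2 was above that of Esrrb at both stages.

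Of 9 tested primitive endoderm genes, 4 rose and 1 fell, and the GATA pair moved apart. Gata6 was between 15.0 and 377 TPM (median 261) at 8C and between 2.79 and 17.6 TPM (median 8.09) at 4C (log2 fold change 4.11 ± 0.62, adjusted p = 1.35e-06). Gata4 was between 0.182 and 62.6 TPM (median 16.9) at 8C and between 152 and 267 TPM (median 169) at 4C (log2 fold change -3.80 ± 0.62, adjusted p = 4.64e-06). The collagen chaperone Serpinh1 was between 0 and 1580.0 TPM (median 26.0) at 8C, listed at 0 at 4C (adjusted p = 1.08e-04), and Col4a1, a basement membrane collagen, rose at medians of 4.27 TPM at 8C and 0 TPM at 4C (log2 fold change 1.66, adjusted p = 0.00230). Gata6 depended on the date: its 8C median was 22.0 TPM on 15 July and 331 TPM on 8 March (log2 difference -3.66, adjusted p = 3.03e-12).

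In FGF signalling, by which epiblast and primitive endoderm are later sorted, 2 of 17 tested genes rose and 4 fell, with a median of -0.16. The ligand Fgf4 fell without overlap, at a median of 4.60 TPM at 8C, and was between 52.7 and 121 TPM (median 91.0) at 4C (log2 fold change -4.22 ± 0.52, adjusted p = 5.01e-08). Its receptor Fgfr2 rose and was between 13.5 and 94.4 TPM (median 55.7) at 8C and between 0 and 15.9 TPM (median 7.83) at 4C (log2 fold change 2.81 ± 0.41, adjusted p = 8.06e-07). The receptor Fgfr4 fell, at medians of 4.82 TPM at 8C and 41.0 TPM at 4C (log2 fold change -2.71 ± 0.41, adjusted p = 1.47e-06), and so did the exchange factor Sos1, at 5.74 TPM at 8C and 15.8 TPM at 4C (log2 fold change -1.30, adjusted p = 2.26e-04). Among 14 tested genes of Nodal, BMP and other ligands and receptors, 3 rose and 3 fell, and 1 fell without 4C replicates 1 and 2. Id3, a target of BMP signalling, was between 162 and 533 TPM (median 288) at 8C and between 0.799 and 12.6 TPM (median 2.28) at 4C (log2 fold change 6.27 ± 0.29, adjusted p = 2.15e-17). Pdgfa, the ligand of Pdgfra, rose at medians of 35.2 TPM at 8C and 5.71 TPM at 4C (log2 fold change 2.58, adjusted p = 4.68e-06), as did Pcsk6, a protease that matures Nodal, at 4.25 TPM at 8C and 0 TPM at 4C (log2 fold change 2.18, adjusted p = 1.53e-05). The activin receptor Acvr2a fell, at 10.9 TPM at 8C and 32.2 TPM at 4C (log2 fold change -1.58, adjusted p = 3.18e-04).

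Genes of the 2-cell burst and of the oocyte were among the largest falls. Of 19 tested burst genes, 13 fell and 1 rose (Pramel6), with a median of -1.65. Tdpoz4 (chr3:93796398-93797510), of a family with speckle-type POZ domains, was between 0 and 100.1 TPM (median 5.12) at 8C and between 701 and 1722 TPM (median 1091) at 4C (log2 fold change -7.22 ± 0.79, adjusted p = 5.49e-09). Its relative Tdpoz8 was between 0 and 80.6 TPM (median 0.840) at 8C and between 106 and 299.8 TPM (median 183) at 4C (log2 fold change -6.10 ± 0.61, adjusted p = 8.09e-10). The deubiquitinase gene Usp17lb (chr7:104840257-104842603) was between 0 and 8.84 TPM (median 0.170) at 8C and between 44.9 and 337 TPM (median 139.7) at 4C (log2 fold change -6.31 ± 0.45, adjusted p = 3.88e-13). The groups did not overlap in any of the 3. Tdpoz, Usp17l and Obox genes are families of close copies, so reads may be shared among copies and a value of 1 copy is uncertain. Zfp352, a zinc finger gene of the burst, was between 0 and 1.11 TPM (median 0) at 8C and between 29.3 and 60.4 TPM (median 34.9) at 4C (log2 fold change -5.12 ± 0.23, adjusted p = 1.15e-17). B020004J07Rik was between 0.256 and 41.9 TPM (median 5.30) at 8C and between 39.0 and 291 TPM (median 167) at 4C (log2 fold change -4.50 ± 0.46, adjusted p = 1.48e-09).

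All 4 tested Obox homeobox genes fell. Obox8 (chr7:14331436-14333557) was between 0 and 79.7 TPM (median 2.66) at 8C and between 340.4 and 602 TPM (median 390.2) at 4C (log2 fold change -6.25 ± 0.76, adjusted p = 4.15e-08). Obox3 was between 0 and 0.807 TPM (median 0) at 8C and between 15.2 and 36.9 TPM (median 21.0) at 4C (log2 fold change -4.55 ± 0.22, adjusted p = 5.91e-17), and Obox1 at most 0.0436 TPM at 8C and between 6.94 and 16.8 TPM (median 9.02) at 4C (log2 fold change -3.41 ± 0.20, adjusted p = 5.67e-15). Obox6 kept a high level, between 178 and 2871 TPM (median 909) at 8C and between 1249 and 3164 TPM (median 1800.3) at 4C, and fell with overlap (log2 fold change -1.14 ± 0.38, adjusted p = 0.0110, and -0.99 without 4C replicate 6). The median of Obox6 was the highest of the 4 at both stages.

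Of 22 tested oocyte and maternal genes, 17 fell and 2 rose (Khdc3 and Cd9), with a median of -3.12. Nlrp9c (chr7:26322473-26403700) was between 0 and 1.44 TPM (median 0) at 8C and between 50.5 and 135 TPM (median 88.8) at 4C (log2 fold change -6.28 ± 0.25, adjusted p = 1.23e-18), and its relative Nlrp4f was between 0 and 2.02 TPM (median 0) at 8C and between 23.4 and 38.3 TPM (median 29.6) at 4C (log2 fold change -4.77 ± 0.25, adjusted p = 4.62e-16). Oog2, an oocyte gene with leucine-rich repeats, was between 0 and 4.65 TPM (median 0) at 8C and between 65.0 and 199.8 TPM (median 121) at 4C (log2 fold change -6.56 ± 0.37, adjusted p = 1.98e-15). Gdf9, a growth factor secreted by the oocyte, had medians of 0.851 TPM at 8C and 52.4 TPM at 4C (log2 fold change -4.53 ± 0.46, adjusted p = 1.06e-09). Within the subcortical maternal complex the members parted: Nlrp5, Padi6 and Tle6 fell (log2 fold changes -4.51, -2.56 and -1.91) while Khdc3 rose. Cd9, a tetraspanin needed for sperm fusion, rose without overlap, at medians of 763 TPM at 8C and 134 TPM at 4C (log2 fold change 2.44 ± 0.15, adjusted p = 9.50e-15). Dppa3, the maternal factor Stella, had medians of 1369 TPM at 8C and 1528 TPM at 4C and did not pass the test (log2 fold change 0.10, adjusted p = 0.770, and -0.56 in reads with a 5′ molecular identifier).

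Other genes among the 12 largest falls were Omt2a, Gsdmc2, Ccdc69, Gdap1, Tnfaip8l2 and Grm2. Omt2a, an oocyte-enriched transcript, was between 0 and 10.3 TPM (median 3.29) at 8C and between 208 and 1162 TPM (median 523) at 4C (log2 fold change -7.09 ± 0.49, adjusted p = 1.79e-13). Gsdmc2, of the gasdermin family of pore-forming proteins, was at most 4.15 TPM at 8C and between 23.5 and 239 TPM (median 93.5) at 4C (log2 fold change -6.16 ± 0.36, adjusted p = 3.56e-15). Gdap1, a protein of the mitochondrial outer membrane, was at most 1.35 TPM at 8C and between 53.7 and 103 TPM (median 78.7) at 4C (log2 fold change -6.09 ± 0.24, adjusted p = 6.05e-19). The remaining 3 were listed at 0 in the median 8C embryo: Ccdc69 was at most 3.26 TPM at 8C and between 32.5 and 443 TPM at 4C, Tnfaip8l2 at most 2.43 TPM at 8C and between 55.5 and 111 TPM (median 78.2) at 4C, and Grm2, a glutamate receptor, at most 3.94 TPM at 8C and between 17.7 and 277 TPM (median 103) at 4C. Their log2 fold changes were -6.15 ± 0.41, -6.06 ± 0.27 and -5.92 ± 0.45.

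**Figure D3:**
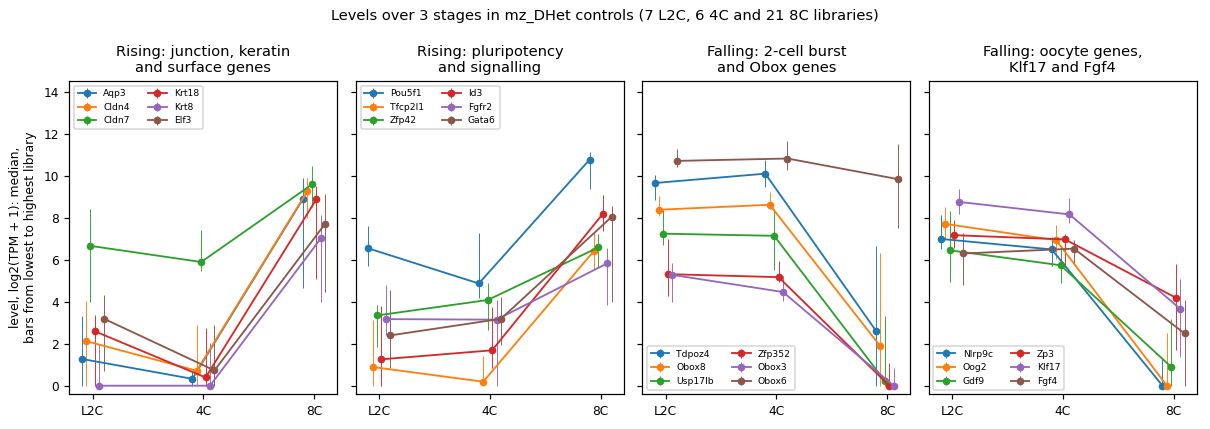
Median TPM (points, log2(TPM + 1) axis) with bars from the lowest to the highest embryo at L2C, 4C and 8C in 7, 6 and 21 mz_DHet embryos, for 24 genes in 4 panels. Aqp3 had medians of 1.42, 0.286 and 475 TPM at L2C, 4C and 8C, while Obox8 had 331, 390.2 and 2.66 TPM.

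Late 2-cell embryos of the same genotype place these levels in a longer series, given as levels only. Aqp3, Cldn4 and Krt18 had medians of 1.42, 3.36 and 5.02 TPM at L2C, so their high levels are those of the 8C embryos. Tdpoz4 had medians of 800.4, 1091 and 5.12 TPM at L2C, 4C and 8C, and Usp17lb 149.7, 139.7 and 0.170 TPM. Oog2 had 207, 121 and 0 TPM in that order, Klf17 429, 284 and 11.6 TPM, and Gja1 19.9, 313 and 797 TPM. The 4C medians of Tdpoz4 and Usp17lb were nearer to those at L2C than to those at 8C, while the median of Gja1 was higher at 4C than at L2C.

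Of 22 tested genes of maternal RNA decay, 6 fell (27.3%, against 31.4% of all tested genes) and none rose (18.6% of all), with a median of -0.83. Cnot8, a deadenylase subunit of the CCR4-NOT complex, was between 93.5 and 196 TPM (median 141) at 8C and between 324 and 507 TPM (median 466) at 4C (log2 fold change -1.60 ± 0.15, adjusted p = 3.17e-10). The other falls with the smallest p were Ythdf2, a reader of methylated RNA (239.6 TPM at 8C, 646 TPM at 4C, adjusted p = 1.72e-04), the decapping enzyme Dcp2 (3.50 TPM at 8C, 21.7 TPM at 4C, adjusted p = 2.45e-05) and Tob2, which recruits deadenylases (1.98 TPM at 8C, 11.5 TPM at 4C, adjusted p = 5.92e-05).

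Transcripts for the protein synthesis machinery took a larger share at 8C. Of 77 tested cytosolic ribosomal proteins, 68 rose and none fell, against 18.6% and 31.4% of all tested genes, with a median of 1.5. Without overlap 51 of the 77 rose, while 4.72% of all tested genes lay higher in that way. Rpl8, of the large subunit, was between 981 and 3108 TPM (median 2641) at 8C and between 287 and 645 TPM (median 586) at 4C (log2 fold change 2.19 ± 0.19, adjusted p = 2.91e-11). Rpl7a, Rpl13a and Rpl18 rose too, with log2 fold changes of 2.14, 2.12 and 2.14. Among the most abundant were Rpl3 (4183 TPM at 8C, 1251 TPM at 4C) and Rps4x (2991 TPM at 8C, 2067 TPM at 4C). Rps4x was under the 2-fold limit without 4C replicate 6, at 0.94. These genes also moved with date: 42 of the 77 were higher and 1 lower on 15 July than on 8 March, against 6.94% and 33.4% of all tested genes. Within the embryos of 8 March alone the sum of the ribosomal protein genes still lay above every 4C embryo. In reads with a 5′ molecular identifier, which hold no 8C embryo of 15 July, 28 of the 77 rose and none fell. Of all 8411 genes tested in those reads 1459 rose and 2701 fell. Of 75 tested genes of ribosome biogenesis, which encode the factors that assemble ribosomes, 23 were lower (30.7%, near the 31.4% over all tested genes) and 1 higher (1.33%, against 18.6%), with a median of -0.67. Nop2, an rRNA methyltransferase, was between 90.9 and 243 TPM (median 173) at 8C and between 342 and 728 TPM (median 478) at 4C (log2 fold change -1.61 ± 0.20, adjusted p = 3.34e-08). The RNA polymerase I subunit Polr1e, the helicase Ddx10 and Nop9 also fell without overlap, with log2 fold changes of -1.64, -2.08 and -2.05.

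Nuclear genes for mitochondrial proteins rose more often than they fell. Of 81 tested genes of oxidative phosphorylation, 51 rose and 1 fell, with a median of 1.27, and of 78 mitochondrial ribosomal proteins 36 rose and 1 fell, with a median of 0.90. Of all tested genes 18.6% rose and 31.4% fell. Ndufs6, a subunit of complex I, was between 51.7 and 423 TPM (median 94.1) at 8C and between 1.17 and 8.58 TPM (median 5.19) at 4C (log2 fold change 4.31 ± 0.36, adjusted p = 1.88e-11). Ndufs4, also of complex I, was between 14.2 and 89.1 TPM (median 33.2) at 8C and between 0 and 6.17 TPM (median 2.75) at 4C (log2 fold change 3.74 ± 0.36, adjusted p = 3.62e-10). The complex I subunit Ndufa9 and the ATP synthase subunit Atp5d rose as well, with log2 fold changes of 2.00 and 2.73. Among mitochondrial ribosomal proteins, Mrps25 had medians of 47.9 TPM at 8C and 7.74 TPM at 4C (log2 fold change 2.57 ± 0.28, adjusted p = 5.49e-09), and Mrpl30, Mrps5 and Mrps18b had log2 fold changes of 2.21, 2.12 and 1.49. These lists moved with date too: 54 of the oxidative phosphorylation genes were higher and 5 lower on 15 July than on 8 March, and 24 of the mitochondrial ribosomal proteins higher and 3 lower. Of all tested genes 6.94% were higher and 33.4% lower on 15 July. In reads with a 5′ molecular identifier, which hold no 8C embryo of 15 July, 27 of 79 oxidative phosphorylation genes rose and 2 fell, against 1459 and 2701 of all 8411 genes tested there. Of 35 tested proteasome subunits, 17 rose and 1 (Psmd5) fell, with a median of 0.99. The ATPase subunit Psmc6 was between 259 and 1173 TPM (median 345) at 8C and between 46.7 and 122 TPM (median 69.2) at 4C (log2 fold change 2.52 ± 0.24, adjusted p = 3.06e-10), and Psmc3, Psmc4 and Psma1 rose without overlap, with log2 fold changes of 2.32, 2.01 and 1.65.

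In glucose metabolism 10 of 25 tested genes rose and 4 fell, against 18.6% and 31.4% of all tested genes. Aldoa, the aldolase of glycolysis, had medians of 426 TPM at 8C and 93.3 TPM at 4C (log2 fold change 1.77 ± 0.24, adjusted p = 1.82e-07). Hk2, a hexokinase, had 63.8 TPM at 8C and 2.44 TPM at 4C (log2 fold change 3.82 ± 0.57, adjusted p = 1.26e-06), and Pfkfb2, which makes an activator of phosphofructokinase, 9.70 TPM at 8C and 0 TPM at 4C (log2 fold change 2.92, adjusted p = 9.79e-07). The 4 falls were those of Ldha, Ldhb, Pdk1 and Pfkfb3. Pfkfb3, which makes the same activator as Pfkfb2, was between 2.35 and 109 TPM (median 23.9) at 8C and between 153 and 225 TPM (median 190.4) at 4C (log2 fold change -3.11 ± 0.48, adjusted p = 2.30e-06). Ldha, a lactate dehydrogenase, had medians of 8.40 TPM at 8C and 40.0 TPM at 4C (log2 fold change -2.02, adjusted p = 0.00969), and 0.27 with the 8C embryos of 23 February alone. Ldhb, its relative, was between 0 and 9.04 TPM (median 4.56) at 8C and between 46.9 and 114 TPM (median 80.7) at 4C (log2 fold change -4.34 ± 0.50, adjusted p = 1.39e-08), and Pdk1, a kinase that switches off pyruvate dehydrogenase, was between 0 and 3.17 TPM (median 0) at 8C and between 7.24 and 37.8 TPM (median 21.2) at 4C (log2 fold change -4.06 ± 0.30, adjusted p = 1.39e-12). Of 27 tested genes of cholesterol synthesis and handling, 8 rose and 5 fell, and 3 fell without 4C replicates 1 and 2. Stard4, a cholesterol carrier, had medians of 57.8 TPM at 8C and 3.07 TPM at 4C (log2 fold change 3.80 ± 0.47, adjusted p = 6.09e-08). The synthesis enzymes Mvd and Msmo1 rose without overlap (log2 fold changes 3.32 and 2.57), while Hmgcs1, an early enzyme of the same pathway, fell, at 53.8 TPM at 8C and 210.2 TPM at 4C (log2 fold change -2.04, adjusted p = 8.42e-06). Npc2, which exports cholesterol from lysosomes, had 396 TPM at 8C and 184 TPM at 4C (log2 fold change 1.10, adjusted p = 5.69e-06, and 0.96 without 4C replicate 6).

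Of 29 tested lysosome and endocytosis genes, 12 rose and 5 fell, against 18.6% and 31.4% of all tested genes. In 4C replicates 1 and 2, the libraries with high Lyz2, 8 of the 29 were above every other 4C embryo (6.76% of all tested genes were) and none below. Ctsd, the protease cathepsin D, was at 1178 and 899.7 TPM in those 2 and at most 228 TPM in the other 4, and Hexa, a hexosaminidase subunit, at 96.0 and 66.5 TPM and at most 13.0 TPM. Both rose, with medians of 1007 and 148 TPM at 8C, against 166 and 12.9 TPM at 4C. Apoe, an apolipoprotein, was at 1095.5 and 1163 TPM in the same 2 libraries and at most 39.8 TPM in the other 4, with a log2 fold change of -1.27 (adjusted p = 0.112), and 0.59 without the 2. Without them 13 lysosome genes rose and 4 fell. Ctsb (chr14:63122462-63145923), the protease cathepsin B, fell and was between 56.5 and 518 TPM (median 150.1) at 8C and between 1228 and 3334 TPM (median 1867) at 4C (log2 fold change -3.41 ± 0.34, adjusted p = 8.11e-10). Lamp2 also fell, and was between 88.2 and 540.1 TPM (median 177) at 8C and between 632 and 1478 TPM (median 1131) at 4C (log2 fold change -2.53 ± 0.27, adjusted p = 3.35e-09). Its relative Lamp1 rose, at medians of 875 TPM at 8C and 319 TPM at 4C (log2 fold change 1.54 ± 0.23, adjusted p = 1.32e-06). Tfeb, a transcription factor of lysosome genes, rose at 81.5 TPM at 8C and 6.67 TPM at 4C (log2 fold change 2.91, adjusted p = 9.31e-08), and so did the proton pump subunit Atp6v0c, at 805 TPM at 8C and 243 TPM at 4C (log2 fold change 1.52, adjusted p = 5.18e-08).

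Of 45 tested mitosis genes, 20 fell and 2 rose (Ncaph and Spc24), against 31.4% and 18.6% of all tested genes, with a median of -0.77. This count depended on scaling: after median-ratio scaling 9 were lower and 5 higher, and in the date-term fit 6 lower and 5 higher. Kif2c, a kinesin that corrects spindle attachments, was between 6.06 and 57.6 TPM (median 25.2) at 8C and between 92.4 and 408 TPM (median 166) at 4C (log2 fold change -2.96 ± 0.37, adjusted p = 6.24e-08). Within the Ndc80 complex of the kinetochore, Spc25 fell, at medians of 49.6 TPM at 8C and 296 TPM at 4C (log2 fold change -2.54 ± 0.28, adjusted p = 4.70e-09), and its partner Spc24 rose, at 85.2 TPM at 8C and 34.2 TPM at 4C (log2 fold change 1.39 ± 0.20, adjusted p = 5.99e-07). Cdca8, or borealin, fell without overlap (log2 fold change -1.41). Of 49 tested DNA replication genes, 9 rose, a share near the 18.6% over all tested genes, and 10 fell, against 31.4% of all. Their median was -0.15 and turned to 0.23 after median-ratio scaling. Tyms, thymidylate synthase, was between 372 and 1074 TPM (median 574) at 8C and between 70.7 and 129 TPM (median 99.2) at 4C (log2 fold change 2.59 ± 0.17, adjusted p = 9.36e-14). Rfc4, a clamp loader subunit, and Pold1, a replicative polymerase, rose without overlap (log2 fold changes 2.29 and 1.96), while Cdc45 of the replicative helicase was between 102 and 352 TPM (median 213) at 8C and between 685 and 1054 TPM (median 886) at 4C (log2 fold change -2.05 ± 0.20, adjusted p = 7.77e-10).

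Among 17 tested genes of DNA methylation, 3 rose and 6 fell, and the Tet enzymes, which oxidise methylated cytosine, went in both directions. Tet2 was between 2.18 and 54.4 TPM (median 31.5) at 8C and between 0.363 and 5.28 TPM (median 2.67) at 4C (log2 fold change 2.98 ± 0.43, adjusted p = 7.80e-07). Tet3 was between 0 and 5.35 TPM (median 1.15) at 8C and between 8.26 and 26.5 TPM (median 11.8) at 4C (log2 fold change -2.71 ± 0.36, adjusted p = 1.76e-07), and Tet1 was between 3.79 and 58.9 TPM (median 9.83) at 8C and between 19.0 and 76.4 TPM (median 49.8) at 4C (log2 fold change -1.94 ± 0.34, adjusted p = 1.52e-05). Dnmt1, the maintenance methyltransferase, fell without overlap, at medians of 14.7 TPM at 8C and 35.0 TPM at 4C (log2 fold change -1.55, adjusted p = 1.60e-04). Of 22 tested histone variants and chaperones, 3 rose and 9 fell. Ubn1, of the HIRA complex that deposits H3.3, was between 4.35 and 31.6 TPM (median 14.8) at 8C and between 57.5 and 267 TPM (median 171) at 4C (log2 fold change -3.48 ± 0.35, adjusted p = 8.11e-10). The chaperones Asf1b and Anp32e fell too (log2 fold changes -1.62 and -1.63), while the variant H2ax rose, at medians of 59.4 TPM at 8C and 4.28 TPM at 4C (log2 fold change 3.26 ± 0.44, adjusted p = 2.15e-07).

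Of 15 tested imprinted genes, 3 rose and 6 fell. Usp29, expressed from the paternal allele, was between 0 and 24.5 TPM (median 4.07) at 8C and between 80.9 and 235 TPM (median 189) at 4C (log2 fold change -4.67 ± 0.53, adjusted p = 8.74e-09), and Slc38a4, an amino acid transporter, was between 14.6 and 57.6 TPM (median 28.9) at 8C and between 0 and 8.61 TPM (median 0) at 4C (log2 fold change 4.13 ± 0.36, adjusted p = 3.78e-11). Impact and Mest fell, with log2 fold changes of -2.96 and -3.28. On the X chromosome, 12.3% of 334 tested genes rose and 40.4% fell, with a median of -0.79, outside the range of -0.45 to -0.19 over the autosomes, and the 8C embryos of 8 March alone gave -0.74. Rlim, an X-linked activator of Xist, fell without overlap, at medians of 28.8 TPM at 8C and 78.6 TPM at 4C (log2 fold change -1.52, adjusted p = 8.30e-06). Xist exceeded 10 TPM in 11 of 21 embryos at 8C and in 1 of 6 at 4C. Y-linked genes summed to over 1 TPM in 10 of 21 embryos at 8C and in all 6 at 4C. At 4C, however, Kdm5d was at least 4.42 TPM in every embryo, while Eif2s3y was at 0 in all but replicate 4 (13.3 TPM). The sex of most 4C embryos was therefore not clear from these genes. The part of embryo sex in the X-linked result was not tested.

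Of 19 tested p53 targets and regulators, 6 rose (31.6%, against 18.6% of all tested genes) and 6 fell (31.6%, against 31.4%). Without 4C replicates 1 and 2, 4 rose and 7 fell. Pmaip1, the apoptosis trigger Noxa, was between 8.98 and 787 TPM (median 31.1) at 8C and between 0 and 10.7 TPM (median 3.99) at 4C (log2 fold change 2.92 ± 0.55, adjusted p = 4.36e-05). Bax, a pore former of apoptosis, had medians of 162 TPM at 8C and 83.1 TPM at 4C (log2 fold change 1.02 ± 0.15, adjusted p = 8.11e-07), and 0.92 without 4C replicate 2, which is under the limit. Mdm2, the ligase that removes p53, fell, at medians of 43.0 TPM at 8C and 250.2 TPM at 4C (log2 fold change -2.49 ± 0.42, adjusted p = 7.96e-06). Of 9 tested immediate early and heat shock genes, 3 rose and 3 fell. The chaperone gene Hsp90aa1 was between 1026 and 2912 TPM (median 1822) at 8C and between 250.4 and 405 TPM (median 295) at 4C (log2 fold change 2.56 ± 0.19, adjusted p = 7.57e-13). Jun and Ier2, which cells switch on within minutes of a stimulus, rose to medians of 7.11 and 38.9 TPM at 8C, against 0.0807 and 7.16 TPM at 4C, and the inducible Hspa1a fell to 3.56 TPM at 8C, against 19.7 TPM at 4C (adjusted p = 0.00354).

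The most abundant genes that rose were led at 8C by Calcoco2, a receptor of selective autophagy, which was between 1681 and 9326 TPM (median 6905) at 8C and between 574 and 1282 TPM (median 946) at 4C (log2 fold change 2.49 ± 0.35, adjusted p = 5.06e-07). Timd2, a ferritin receptor, was between 3039 and 6428 TPM (median 4479) at 8C and between 1062 and 2050.4 TPM (median 1535) at 4C (log2 fold change 1.57 ± 0.15, adjusted p = 2.49e-10). The chaperone Dnaja1 and the prolyl isomerase Ppia also rose, at medians of 5793 and 2445 TPM at 8C, against 1501 and 1413 TPM at 4C (log2 fold changes 2.12 and 1.04). Without 4C replicate 2 or 6 the change of Ppia was 1.00 or 0.95, under the 2-fold limit. Among abundant genes that fell, Spic, an ETS factor, was between 109 and 1705 TPM (median 321) at 8C and between 1835 and 2492 TPM (median 2089) at 4C (log2 fold change -2.54 ± 0.42, adjusted p = 6.83e-06). Mat2a, which makes the methyl donor S-adenosylmethionine, had medians of 1067 TPM at 8C and 2645 TPM at 4C (log2 fold change -1.33 ± 0.29, adjusted p = 2.22e-04), but the date-term fit turned its direction, to 0.19. Cdc20, an activator of the anaphase-promoting complex, Prps1, which makes the nucleotide precursor PRPP, and the tubulin Tubb4b fell with overlap, with log2 fold changes of -1.02, -1.16 and -1.39. Cdc20 was under the 2-fold limit without 4C replicate 4 or 6 (-0.98 and -0.93).

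Embryos of the 8-cell stage also differed between dates. Between the 8C embryos of 15 July and those of 8 March, 768 genes were higher (6.94%) and 3699 lower (33.4%), and at least 4-fold 236 were higher (2.13%) and 874 lower (7.9%). After median-ratio scaling the counts were 1735 higher and 1645 lower, so the split depends on scaling. Trophectoderm factors and keratins were on the lower side, with 10 of 17 lower on 15 July and none higher, as were 19 of 33 adhesion and polarity genes (1 higher) and 11 of 20 Hippo genes (none higher). Cdh1 had medians of 20.8 TPM on 15 July and 124 TPM on 8 March (log2 difference -2.43, adjusted p = 1.34e-10), and Cdx2 30.2 TPM on 15 July and 111 TPM on 8 March (log2 difference -2.86, adjusted p = 0.00123). Ribosomal, mitochondrial and Dppa5a transcripts were on the higher side, with Dppa5a at a log2 difference of 1.98 (adjusted p = 2.20e-11). Against 4C, embryos of 8 March alone gave 2311 genes higher and 3120 lower, those of 15 July alone 1771 and 4733, and all 8C embryos without those of 15 July 2194 and 3180. In the date-term fit 1884 genes were higher and 3018 lower, and 102 of the 5538 genes called without a date term had the other sign.

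**Figure D4:**
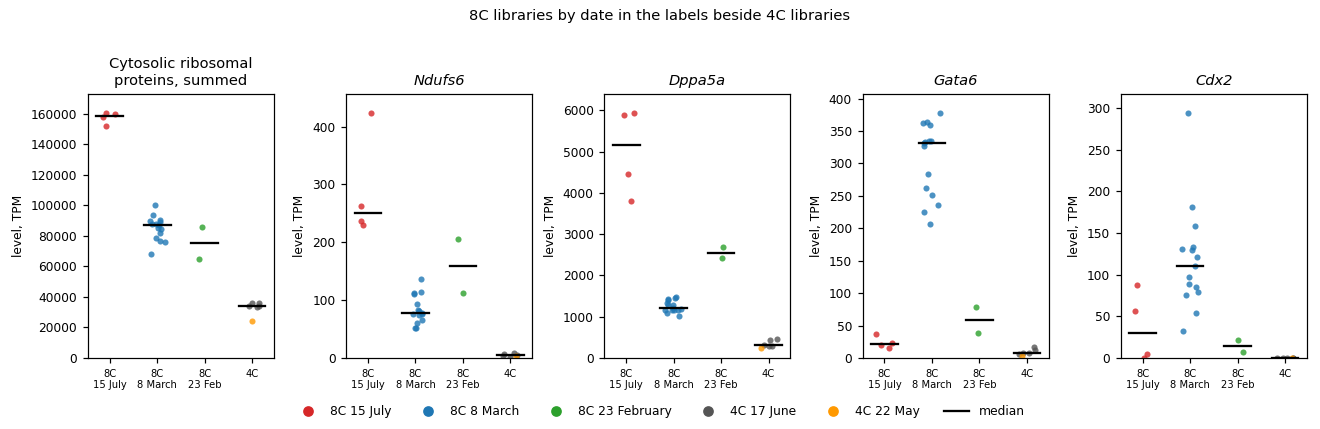
Values of each 8C embryo by date (15 July, 8 March, 23 February) and of the 4C embryos, for the summed cytosolic ribosomal protein genes and for Ndufs6, Dppa5a, Gata6 and Cdx2 (TPM, linear axes). The ribosomal protein sum of the 4 embryos of 15 July lies above that of every embryo of 8 March, and Gata6 has a median of 22.0 TPM on 15 July and 331 TPM on 8 March.

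Transcript length moved with the comparison as well. Among coding genes with the shortest transcripts (up to 860 bases), 23.5% rose and 25.3% fell, and among those with the longest (over 1817 bases), 12.6% rose and 42.1% fell. The same split between 15 July and 8 March at 8C gave 11.9% higher and 29.1% lower for the short and 1.3% higher and 48.2% lower for the long. Reads with a molecular identifier (UMI) anchored at the 5′ end, de-duplicated per the labels and deposited as TPM, were tested in the same way. In them 20.1% of the short rose and 26.8% fell, against 12.7% and 40.6% of the long. Those reads come from 16 of the same embryos at 8C, none of them of 15 July, and from 6 at 4C. They called 1459 genes higher and 2701 lower of 8411 tested. There Aqp3, Cldn4 and Krt18 had log2 fold changes of 7.49, 8.28 and 7.49, and Nlrp9c and Obox8 of -4.59 and -5.06.

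The step between the stages was set against the same step in mz_DKO embryos, which have lost Nr5a2 and Esrrb. Gene-level reads of Nr5a2 had medians of 789.8 TPM at 8C and 736 TPM at 4C in mz_DKO and so do not check the deletion. In mz_DKO 2012 of 13115 tested genes were higher at 8C (15.3%) and 3655 lower (27.9%). The step was larger in mz_DHet than in mz_DKO for 311 genes (2.37%) and smaller, that is more negative, for 644 (4.91%). These are signed differences, so a gene can be in either count through a change in mz_DKO alone. Without 15 July, a date with no mz_DKO embryo, the counts were 405 and 534. Restricted to 8 March at 8C and 17 June at 4C, the dates with most embryos, the counts were 594 and 679. Crip2 gave the smallest p: it had a median of 534 TPM at 8C and 0.699 TPM at 4C in mz_DHet, and 11.3 TPM at 8C and 3.94 TPM at 4C in mz_DKO. Its difference between the log2 steps was 6.58 ± 0.60 (adjusted p = 7.24e-11), and 7.45 on 8 March and 17 June alone. Aqp3 had medians of 59.5 TPM at 8C and 17.2 TPM at 4C in mz_DKO (difference between the steps 6.27 ± 0.79, adjusted p = 3.86e-07, on 8 March and 17 June alone 6.95). Ptges, a prostaglandin E synthase, rose in mz_DHet, at medians of 78.4 TPM at 8C and 2.98 TPM at 4C, and in mz_DKO had 2.49 TPM at 8C and 8.99 TPM at 4C (difference 5.95 ± 0.75, adjusted p = 3.86e-07).

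Other rises of the control step differed between the genotypes by the same test. For Cldn4, with 107 TPM at 8C and 4.50 TPM at 4C in mz_DKO, the difference between the steps was 3.40 ± 0.63 (adjusted p = 2.92e-04). For Khdc3, with 90.4 TPM at 8C and 18.5 TPM at 4C in mz_DKO, it was 4.32 ± 0.77 (adjusted p = 1.78e-04), and for Cdx2, with 0.214 TPM at 8C and 0 TPM at 4C in mz_DKO, 5.05 ± 0.83 (adjusted p = 7.13e-05). Ass1 gave 4.97 ± 0.72 (adjusted p = 7.43e-06) and Vgll4 3.71 ± 0.62 (adjusted p = 8.32e-05). The differences for Krt18 (1.80 ± 0.78, adjusted p = 0.169), Pou5f1 (0.94 ± 0.44, adjusted p = 0.211), Perp (-0.13 ± 0.58, adjusted p = 0.935) and Rpl8 (0.11 ± 0.26, adjusted p = 0.868) did not pass the test. Itgb1bp1, a regulator of integrins, is not among the rises: it was not called in mz_DHet, at medians of 92.1 TPM at 8C and 51.8 TPM at 4C. In mz_DKO it had 13.7 TPM at 8C and 64.5 TPM at 4C (difference between the steps 2.83 ± 0.35, adjusted p = 3.14e-07).

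Among falls, the oocyte genes Omt2a and Nlrp9c and the fall of Gdap1 had differences between the steps of 0.06 ± 0.68, -0.04 ± 0.35 and -0.00 ± 0.37, none of which passed the test (adjusted p = 0.977, 0.967 and 1.000). Among burst genes, Obox8 had 147 TPM at 8C and 291 TPM at 4C in mz_DKO (difference -5.10 ± 0.92, adjusted p = 1.99e-04), and B020004J07Rik 86.0 TPM at 8C and 157 TPM at 4C (difference -3.72 ± 0.58, adjusted p = 2.48e-05). Ppp1r16b, a regulatory subunit of protein phosphatase 1, was between 0.209 and 3.28 TPM (median 1.000) at 8C and between 44.0 and 69.3 TPM (median 50.0) at 4C in mz_DHet, and its medians in mz_DKO were 2.23 TPM at 8C and 2.24 TPM at 4C, already low at 4C (difference -4.45 ± 0.45, adjusted p = 1.18e-09). Tnfaip8l2 had 0 TPM at 8C and 7.36 TPM at 4C in mz_DKO (difference -3.72 ± 0.53, adjusted p = 5.34e-06). In 3 genes too low in controls for the stage comparison the genotypes also differed. Cyp26a1 and Rdh1, enzymes of retinoid metabolism, had 8C medians of 0 and 0.785 TPM in mz_DHet and of 62.7 and 16.6 TPM in mz_DKO, with 4C medians of 0 in both genotypes (differences -5.56 ± 0.62 and -3.51 ± 0.43, adjusted p = 3.02e-08 and 2.50e-07). Grin2d, a glutamate receptor subunit, had 0.687 TPM at 8C and 9.13 TPM at 4C in mz_DHet and 4.24 TPM at 8C and 1.77 TPM at 4C in mz_DKO (difference -3.61 ± 0.45, adjusted p = 3.14e-07).

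**Figure D5:**
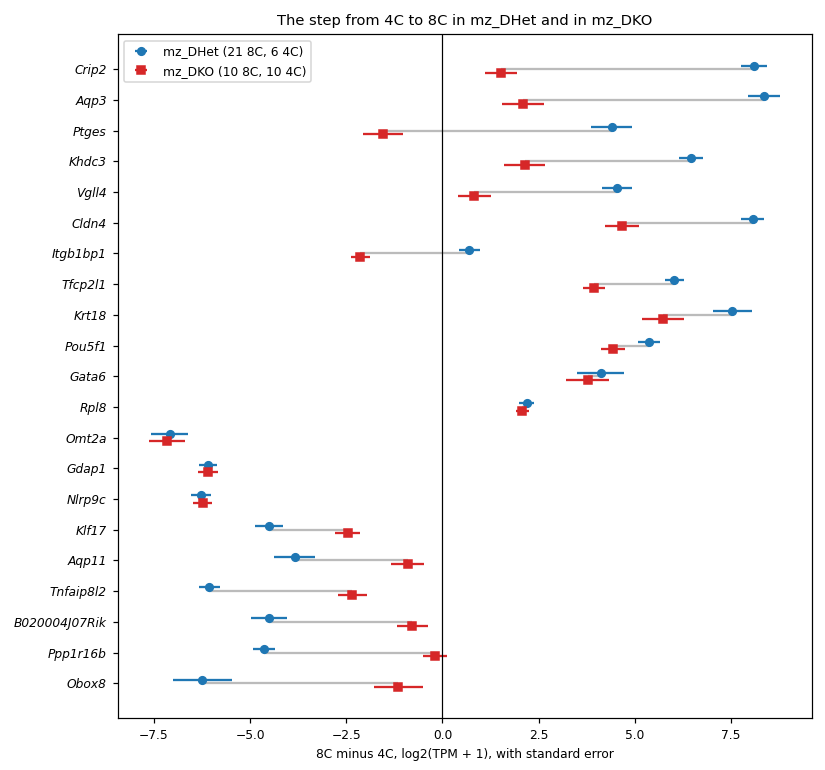
Log2 difference of 8C minus 4C (with SE) in mz_DHet (21 and 6 embryos) and in mz_DKO (10 and 10 embryos) for 21 genes. Crip2, Aqp3 and Ptges show the widest gaps among those with a larger step in mz_DHet, while for Omt2a, Nlrp9c and Gdap1 both genotypes have a negative step.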

How the data were processed

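RNA of single mouse embryos was read with a FLASH-seq-derived protocol for polyadenylated RNA, per the labels. The deposited values are TPM, made by the authors before deposit. The tools cutadapt, STAR, RSEM and DESeq2 and the build mm10 are named, without versions, in the submitters' processing notes, and their roles are not given in the sources used here. Per the file headers and labels, 1 deposited table holds TPM of full-length reads, and the other holds TPM of reads with a UMI anchored at the 5′ end. Of the full-length table, 65 entries without a gene name were left out, and 55168 named genes remained. Sequencing depth is unknown, and some genes (Npm1, Rplp0, Btg4 and Ctsl among them) were not analysed here.

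Genes that reached 5 TPM in 6 or more of the 27 libraries were tested with limma 3.58.1 (limma-trend, two-sided, R 4.3.3) on log2(TPM + 1), with Benjamini-Hochberg adjustment over all genes tested. A call needed an adjusted p under 0.05 and a 2-fold difference. The step in mz_DHet was set against that in mz_DKO by an interaction term, with the same filter over 47 libraries. Summaries used Python 3.11.15 with pandas 2.3.3 and numpy 2.4.6. On simulated data with the spread of these libraries, 63 of 100 genes changed by 1.5 (log2) and 94 of 100 changed by 3.0 were recovered, with 10 false calls among 11069 genes. The simulated embryos were drawn independently and had no dates, so these counts do not cover differences that come from date. No 2 libraries were duplicates: correlations of log2(TPM + 1) had a median of 0.878 within 8C and 0.867 within 4C, and 0.630 between stages.

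The genes described in detail were taken by a fixed scheme. It names both targeted receptors, 12 rises and 12 falls of largest size (mean of 20 TPM or more at either stage), the 5 most abundant called genes in each direction at each stage, up to 4 members with the smallest adjusted p of each list, and 8 genes of the interaction, with predicted, clone and pseudogene names left out of all but the lists. Some genes that it takes are not reported here. Members and lists were chosen with earlier results of these data known, and further members of the lists (Gja1, Tead4, Eomes, Pard6b, Pard3, Yap1, Klf5, Dppa5a, Hk2, Hmgcs1, Lamp1, Dppa3, Cd9 and others) after their values were seen. Gene positions come from GENCODE M21 (GRCm38), which matched 10886 of 11069 tested genes by name (98.3%), and promoter sequences from RefSeq. Alternatives changed the pseudocount, the filter, the scaling, the read type, the dates, the libraries and the groups in the fit.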

Additional observations from a re-analysis of the deposited data

Results flagged for a closer look

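Among 192 named genes the step between the stages differed between mz_DHet and mz_DKO for 49, by the interaction term of limma with Benjamini-Hochberg adjustment and at least 2-fold. Some of the 192 were named for this very difference and many for a large step in mz_DHet. The count of 49 therefore does not measure how common such differences are. Over all 13115 genes tested the step was larger in mz_DHet for 311 (2.37%) and smaller for 644 (4.91%). Values are differences between the log2 steps, mz_DHet minus mz_DKO, and a positive value means a larger step in mz_DHet.

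Differences of at least 3 in favour of mz_DHet were those of Crip2 (6.58), Aqp3 (6.27), Ptges (5.95), Cdx2 (5.05), Ass1 (4.97), Khdc3 (4.32), Vgll4 (3.71), Cldn4 (3.40) and Clic3 (3.07). Junction and epithelial genes with smaller differences were Mpzl2 (2.99), Pkp2 (2.28), Elf3 (2.27), Cldn6 (2.16), Pard6b (1.93) and Pdzd3 (1.92). In metabolism, replication and mitochondria the differences were Pfkfb2 (2.96), Mvd (2.41), Mrps25 (1.44), Pold1 (1.37) and Atp5d (1.08). The remaining positive differences were Itgb1bp1 (2.83), Eprn (2.51), BC048679 (2.42), Smim1 (2.39), Tfcp2l1 (2.09), 1500009L16Rik (1.88), Lats2 (1.77), Calcoco2 (1.46), Zfp42 (1.35) and Cd9 (1.21).

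The most negative differences were those of Cyp26a1 (-5.56), Obox8 (-5.10), Tdpoz4 (-4.59), Ppp1r16b (-4.45), B020004J07Rik (-3.72), Tnfaip8l2 (-3.72), Grin2d (-3.61) and Rdh1 (-3.51). Channel and pump genes had Aqp11 (-2.94), Atp1b3 (-1.39) and Aqp9 (-1.02). Transcription factors had Gata4 (-2.40), Klf17 (-2.05) and Spic (-2.02). The rest were Ccdc69 (-1.82), Kif2c (-1.69), Tet1 (-1.55), Ythdf2 (-1.50) and Cdc20 (-1.04).

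In 147 named genes with a 4C mean of at least 5 TPM, 1 of the 6 4C libraries lay apart from the others in 18, by the ratio of its gap to the group's range (Dixon). Chance flags about 1 in 20 groups. Replicate 6, the embryo of 22 May, was the highest for Aldoa (182 TPM), Asf1b (326 TPM), Cldn7 (167 TPM), H2ax (45.3 TPM), Kif2c (408 TPM), Mrps18b (299.6 TPM), Ncaph (34.7 TPM), Psmc4 (200.5 TPM) and Usp17lb (337 TPM), and the lowest for Rpl8 (287 TPM). Replicate 2 was the highest for Ccdc69 (443 TPM), Ier2 (28.5 TPM), Il7 (87.5 TPM), Itgb1bp1 (126 TPM), Pou5f1 (154 TPM) and Xist (91.4 TPM). Replicate 5 was the highest for Zfp352 (60.4 TPM), and replicate 1 the lowest for Impact (110.2 TPM).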

How the results depend on the processing

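Of 164 named genes that were called and had a value in all 21 alternatives, 113 kept direction and call in all of them. A further 17 had no value in UMI reads. Leaving out each 4C library in turn gave 1951 to 2057 genes higher and 3386 to 3459 lower, 813 to 886 and 1599 to 1672 at 4-fold, and 547 to 639 and 1566 to 1765 without overlap. Counts moved by more than 1.5 times in these cases: with the 8C embryos of 23 February alone (2 libraries) 1262 genes were higher. Without a filter 5405 were lower. With a pseudocount of 5, 385 genes were 4-fold higher and 827 were 4-fold lower, and with the 8C embryos of 15 July alone 2974 were 4-fold lower. Counts without overlap depend on the number of libraries, and were 1060 higher with 8 March alone, 1356 higher and 3984 lower with 15 July alone, and 1670 higher and 3421 lower with 23 February alone. Median-ratio scaling gave 1735 genes higher and 1645 lower on 15 July than on 8 March. With 8 March at 8C and 17 June at 4C alone, the step was larger in mz_DHet for 594 genes. The cause of these moves was not tested.

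The direction turned round in 11 of the named genes tested. In the date-term fit log2 fold changes were 0.81 for Nr5a2, 0.19 for Mat2a, -0.30 for Itgb1bp1, -0.10 for Cldn6, -0.45 for Pard6b and 0.37 for Tead4. Tead4 was also at 0.37 in UMI reads, Dppa3 at -0.56 and Tfap2c at -0.36. With 15 July alone Pard6b was at -0.27 and Tfap2c at -0.12, and with 23 February alone Cldn6 was at -0.059, Ldha at 0.27 and Tfap2c at -0.46. Dppa3 was at -0.26 with 8 March alone, at -0.18 without 15 July and at -0.11 with the replicate block. Without 4C replicates 1 and 2, an alternative chosen after seeing their Lyz2 levels, Apoe was at 0.59 and Lyz2 at 1.46. The cause was not tested.

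List medians near 0 also turned. After median-ratio scaling those of DNA replication, FGF signalling and DNA methylation became 0.23, 0.19 and 0.02. With 15 July alone those of adhesion, cholesterol, glycolysis, immediate early and primitive endoderm genes became -1.03, -0.13, -0.06, -0.77 and -0.11. With the replicate block (the number in the labels as a factor) 1833 genes were higher and 3026 lower, and the step was larger in mz_DHet for 260 and smaller for 456. Deviations of same-numbered embryos from their stage means correlated at -0.0511 to 0.0414, and 1 of 6 4C embryos correlated best with the 8C embryo of its own number. No pairing by number was seen, but the deviations also hold date differences and cannot exclude a pairing. Same-numbered embryos of the stages never share a date. The block left 11 named calls weaker. Depth, unknown here, limits what a listed 0 can show.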
